A study of Mus musculus with 6 samples.

Results

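Serine synthesis and folate one-carbon enzymes were examined in embryonic mouse hearts of 2 Hif1a genotypes, as 10 genes chosen by symbol of 15118 genes in the deposited expression table. The members are Phgdh, Psat1 and Psph, which make serine, the cytosolic folate enzymes Shmt1 and Mthfd1, and the mitochondrial folate enzymes Shmt2, Mthfd2, Mthfd2l, Mthfd1l and Aldh1l2. All 10 had a row in the table and all 10 passed the filter on low values. RNA was sequenced from 6 whole hearts of the Black-Swiss strain, taken at E12.5, a stage of embryonic development when the chambers have formed and the muscle wall is growing. All 6 embryos carried Cre recombinase at 1 of their Nkx2-5 alleles, a gene active in heart muscle and its progenitors. The 3 control hearts (numbered 2, 5 and 9) combined a wild-type with a floxed Hif1a allele, and the 3 mutant hearts (5, 8 and 10) combined a null with a floxed allele. Cells that never expressed Cre thus also differed between the groups, since all cells of the mutant embryos carried the null allele. The product of Hif1a is the part of the transcription factor HIF1 whose stability depends on oxygen. Mutant hearts were compared with control hearts for each enzyme.

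Serine is made from the glycolytic intermediate 3-phosphoglycerate by Phgdh (dehydrogenase), Psat1 (aminotransferase) and Psph (phosphatase), acting in that order. Serine hydroxymethyltransferase then passes a carbon from serine to tetrahydrofolate, in the cytosol through Shmt1 and in mitochondria through Shmt2. In mitochondria Mthfd2 or Mthfd2l oxidises this unit and Mthfd1l releases it as formate, which the cytosolic trifunctional enzyme Mthfd1 puts back on folate for purine and thymidylate synthesis, while Aldh1l2 oxidises formyl-folate to carbon dioxide with the production of NADPH. Several of these genes are textbook targets of ATF4, the transcription factor of the amino acid response, and the mitochondrial branch is known for its high activity in embryonic and dividing cells.

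Expression is given as RPKM, reads scaled for exon length and for the reads of the library, so levels can be compared between genes. Log2 changes are mutant minus control on log2(RPKM + 1), which understates changes of genes with low values. The 6 libraries held about 101400000 to 159300000 reads, as implied by the smallest steps between low values. At that depth the least covered value among the members (Mthfd2l) rested on about 1018 reads, a counting error of 3.13%. Hif1a itself had 61.1, 46.4 and 46.4 RPKM in controls 2, 5 and 9 and 75.7, 55.0 and 77.7 RPKM in mutants 5, 8 and 10 (limma adjusted p = 0.36). Which exons the null and floxed alleles lack is not stated in the labels, so this does not check the deletion. All 12 heart muscle markers examined were present, and Tnnt2 (cardiac troponin T) lay between 2582 and 3044 RPKM. Actc1 (control and mutant means of 3833 and 4631 RPKM) and Myl7 (1550 and 2066) were higher in every mutant heart. Neither passed the threshold (limma adjusted p = 0.43 and 0.27). The other muscle markers overlapped between the groups, and 7 of the 12 changes were positive. The first principal component (45.3% of the variance) ran from control 2 at one end to mutant 8 at the other. Of 13080 genes tested, 55 were higher and 52 lower at a limma adjusted p under 0.05. With each heart centred on its median that split was 57 and 34, with haemoglobin genes left out of the scaling 54 and 79, and without control 5 it was 29 and 14. The total of 107 fell to 52, 43, 67 and 40 without control 2, control 5, control 9 or mutant 10, and reached 198 without mutant 5. The labels name 1 heart per library and nothing on litters, and the p-values reflect only how these hearts vary.

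Of the 10 enzymes 3 rose in the mutant hearts and none fell. These were Mthfd2, Aldh1l2 and Phgdh, and the share of all tested genes was 0.42% called higher and 0.398% called lower. The median log2 change was 0.46 over the 10 enzymes and -0.03 over all tested genes. The enzymes were chosen with earlier results of these data known, so the list was not tested against all genes. In 7 of the 10 enzymes every mutant heart had a higher value than every control heart, which held for 7.6% of all tested genes, while 17% of all tested genes had separate groups in either direction. The same 3 enzymes passed the threshold in each of the 16 alternative settings, which included leaving out each heart in turn. In bulk tissue, fewer cells of a type and less RNA per cell cannot be told apart.

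**Figure D1:**
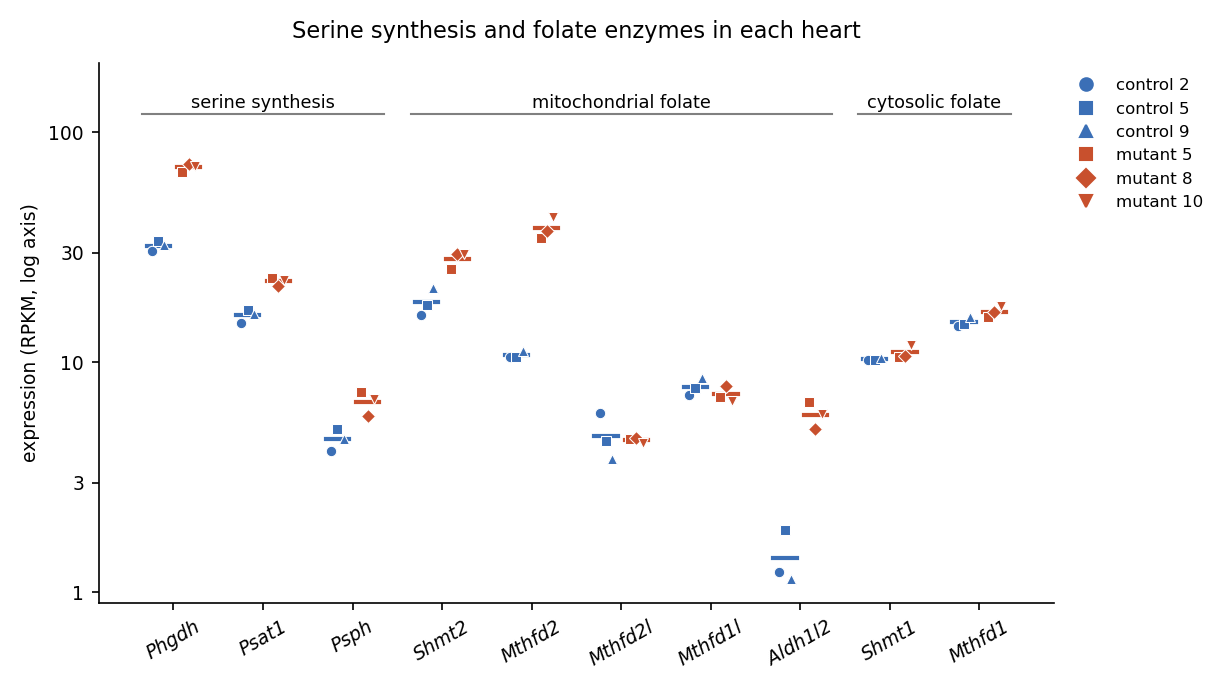
Expression of the 10 enzymes in RPKM (log axis) in each of 3 control (blue) and 3 mutant (orange) hearts, with the symbol marking the heart and the horizontal bar the mean of 3. Mthfd2 moves from 10.8 to 38.3 RPKM and Aldh1l2 from 1.41 to 5.93 RPKM, while Mthfd2l and Mthfd1l overlap between the genotypes.

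Phgdh (mm10 chromosome 3, 98313170 to 98339990, minus strand), the first enzyme of serine synthesis, was the most abundant of the 10 in both genotypes. It had 30.5, 33.6 and 32.5 RPKM in controls 2, 5 and 9 and 67.6, 72.9 and 71.5 RPKM in mutants 5, 8 and 10. The groups were far apart, and the hearts within a genotype were nearly level. The mean was 32.2 ± 1.59 RPKM (SD, n = 3) in the controls and 70.7 ± 2.76 RPKM in the mutants, a log2 change of 1.11 ± 0.09 (SE, limma adjusted p = 0.00056). Over the alternatives its log2 change ranged from 1.03 to 1.15.

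The later steps of serine synthesis had smaller differences that did not pass the threshold. Psat1 (chromosome 19, 15904678 to 15947337, minus strand), which transfers the amino group, had 14.9, 16.9 and 16.2 RPKM in controls 2, 5 and 9 and 23.3, 21.4 and 22.9 RPKM in mutants 5, 8 and 10. Every mutant heart was above every control heart, at a ratio of means of 1.41. The log2 change was 0.47 (95% interval 0.26 to 0.68, limma adjusted p = 0.061), and Psat1 passed in 2 of 16 alternatives, after median centring (0.035) and with a minimum of 5 RPKM (0.044). Psph (chromosome 5, 129765558 to 129787449, minus strand), which removes the phosphate, had 4.13, 5.12 and 4.65 RPKM in the control and 7.40, 5.87 and 6.90 RPKM in the mutant hearts. Its groups did not overlap either, with mutant 8 nearest to the controls, and its log2 change was 0.45 (0.20 to 0.71, adjusted p = 0.16). Psph passed in none of the 16 alternatives. It shares 255 bases of its 4066 bases of exon with Cct6a on the opposite strand, which measured 125 to 158 RPKM and had a log2 change of -0.05. No source used here says whether counting used strand, and the part of such reads in the value of Psph was not tested.

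The proportions of the 3 transcripts within a heart also differed between the genotypes. The ratio of Phgdh to Psat1 was 2.05, 1.98 and 2.00 in controls 2, 5 and 9, a spread of only 0.03 (SD). It was 2.90, 3.41 and 3.13 in mutants 5, 8 and 10. The ratio of Phgdh to Psph had means of 6.97 and 10.64. As stated above, the part of Cct6a reads in the value of Psph was not tested. The summed RPKM of the 3 enzymes lay between 49.4 and 55.6 in control and between 98.3 and 101 in mutant hearts. These ratios were chosen after the values were seen and are given without a test.

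Mthfd2 (chromosome 6, 83305691 to 83325908, minus strand), the mitochondrial dehydrogenase and cyclohydrolase of the branch, had the largest log2 change of the 10 on this scale, though not with a pseudocount of 0.1 RPKM (1.81, against 2.02 for Aldh1l2). It had 10.6, 10.6 and 11.2 RPKM in controls 2, 5 and 9 and 34.6, 37.1 and 43.1 RPKM in mutants 5, 8 and 10. The controls were close together, and every mutant heart was far above them. The means were 10.8 ± 0.342 and 38.3 ± 4.39 RPKM, a ratio of 3.54 and a log2 change of 1.73 ± 0.10 (SE, limma adjusted p = 9.7e-05). By log2 change it ranked 7 among all 13080 tested genes.

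Aldh1l2 (chromosome 10, 83487450 to 83534140, minus strand), the mitochondrial formyltetrahydrofolate dehydrogenase, was the least abundant enzyme in control hearts. It had 1.22, 1.87 and 1.14 RPKM in controls 2, 5 and 9 and 6.70, 5.13 and 5.96 RPKM in mutants 5, 8 and 10. Control 5 stood above the other controls and mutant 8 was the lowest mutant, but the groups stayed well apart. The ratio of means was 4.2, the largest of the 10, and the log2 change was 1.53 ± 0.14 (SE, limma adjusted p = 0.0015). The pseudocount moved this value from 0.77 (5 RPKM) to 2.02 (0.1 RPKM), with the call kept at both. Of 7503 bases of Aldh1l2 exon 1056 lie in exons of D10Wsu102e on the opposite strand. D10Wsu102e had 4.02, 4.07 and 4.29 RPKM in the controls, against 3.92, 3.97 and 4.45 RPKM in the mutants, values that overlapped between the groups. These values are above those of Aldh1l2 in the controls. Whether counting used strand is not known, and the part of such reads in the level and ratio of Aldh1l2 was not tested.

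Shmt2 (chromosome 10, 127517123 to 127522444, minus strand), which feeds serine carbon into the mitochondrial branch, fell just short of the threshold. It had 16, 17.7 and 21.1 RPKM in controls 2, 5 and 9 and 25.6, 29.6 and 29.5 RPKM in mutants 5, 8 and 10. The groups did not overlap, and control 9 came nearest to the mutants. The log2 change was 0.61 (95% interval 0.34 to 0.87, limma adjusted p = 0.062). It passed in 4 of 16 alternatives, with a minimum of 5 RPKM (0.038), a robust prior (0.044), without control 9 (0.049) and without mutant 5 (0.041), and the adjusted p reached 0.29 without control 5. Shmt2 shares 32 bases of exon with Ndufa4l2 on the opposite strand, which was between 0.287 and 1.55 RPKM.

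The other mitochondrial enzymes did not pass. Mthfd2l (chromosome 5, 90931117 to 91021368, plus strand), a second dehydrogenase and cyclohydrolase, had 6.00, 4.53 and 3.79 RPKM in the control and 4.63, 4.68 and 4.45 RPKM in the mutant hearts. All mutant values lay inside the range of the controls, whose SD was 23.5% of their mean. Its log2 change was -0.03 (-0.34 to 0.28, limma adjusted p = 0.95), and it was 0.12 without control 2. Mthfd1l (chromosome 10, 3973118 to 4167081, plus strand), the formate-releasing synthetase, had 7.22, 7.77 and 8.57 RPKM in the control and 7.06, 7.89 and 6.82 RPKM in the mutant hearts. The groups overlapped, with a log2 change of -0.10 (-0.33 to 0.13, adjusted p = 0.75).

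The cytosolic enzymes had small differences. Shmt1 (chromosome 11, 60788104 to 60811718, minus strand) had 10.2, 10.2 and 10.4 RPKM in controls 2, 5 and 9 and 10.6, 10.7 and 11.9 RPKM in mutants 5, 8 and 10. The mutant values were all above the control values, by little, with a log2 change of 0.10 (95% interval -0.10 to 0.30, limma adjusted p = 0.71). Mthfd1 (chromosome 12, 76255298 to 76319803, plus strand) had 14.4, 14.7 and 15.8 RPKM in the control and 15.7, 16.6 and 17.6 RPKM in the mutant hearts. Mutant 5 fell just below control 9, and the log2 change was 0.14 (-0.06 to 0.35, adjusted p = 0.60). Neither passed in any alternative. Shmt1 shares 184 bases of exon with Smcr8 and Mthfd1 37 bases with Gm47525, both on the opposite strand.

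**Figure D2:**
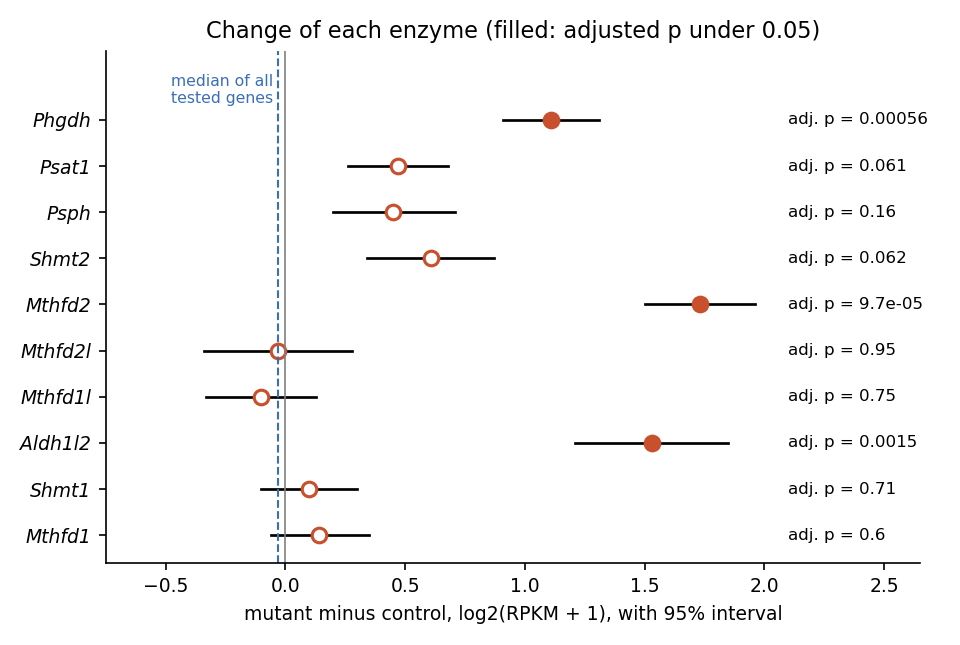
Log2 change, mutant minus control, of each enzyme on log2(RPKM + 1), with the 95% interval from limma and its adjusted p; filled points passed the threshold of 0.05 and the dashed line is the median of all tested genes (-0.03). Phgdh (1.11), Mthfd2 (1.73) and Aldh1l2 (1.53) passed, and the intervals of Mthfd2l, Mthfd1l, Shmt1 and Mthfd1 include 0.

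Mitochondrial and cytosolic isoenzymes were then compared within each heart, so that each heart serves as its own reference. Of 5 planned pairs 4 could be formed, since Aldh1l1, the cytosolic partner of Aldh1l2, had no row in the table. With 3 hearts against 3 the smallest two-sided p of the exact permutation test is 0.1, so no pair could pass 0.05. For Mthfd2 minus Mthfd1 the differences were -0.41, -0.44 and -0.46 in control hearts 2, 5 and 9, and 1.09, 1.11 and 1.24 in mutant hearts 5, 8 and 10, on log2(RPKM + 1). Each control heart thus had less Mthfd2 than Mthfd1 and each mutant heart more, with RPKM ratios of 0.71 to 0.74 and of 2.20 to 2.45. The shift was 1.59 log2 (exact permutation p = 0.1, 0.133 adjusted over 4 pairs), and between 1.54 and 1.61 when any heart was left out.

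Shmt2 already exceeded Shmt1 in control hearts. The log2 differences were 0.61, 0.74 and 0.95 in control hearts 2, 5 and 9, against 1.2, 1.39 and 1.24 in mutant hearts 5, 8 and 10. The mean was 0.77 ± 0.17 (SD, n = 3) in control and 1.28 ± 0.10 in mutant hearts, a shift of 0.51 at the smallest exact permutation p of 0.1. Inside each genotype these differences had the same order as the hearts along the first principal component (2, 5, 9 and 5, 10, 8). With control 2 and mutant 8 left out together the shift was 0.37.

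Mthfd1l and Mthfd2l did not move in that direction against Mthfd1. Mthfd1l minus Mthfd1 was -0.90, -0.84 and -0.81 in the control and -1.05, -0.99 and -1.25 in the mutant hearts, so the groups did not overlap and the mutants were lower by 0.24 log2 (shift of -0.24, exact permutation p = 0.1). Mthfd2l minus Mthfd1 was -1.14, -1.51 and -1.81 in the control and -1.57, -1.63 and -1.77 in the mutant hearts. These overlapped (shift -0.17, exact permutation p = 0.5), and the shift was 0 without control 2. Of the 4 pairs 3 share Mthfd1 and are not independent.

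**Figure D3:**
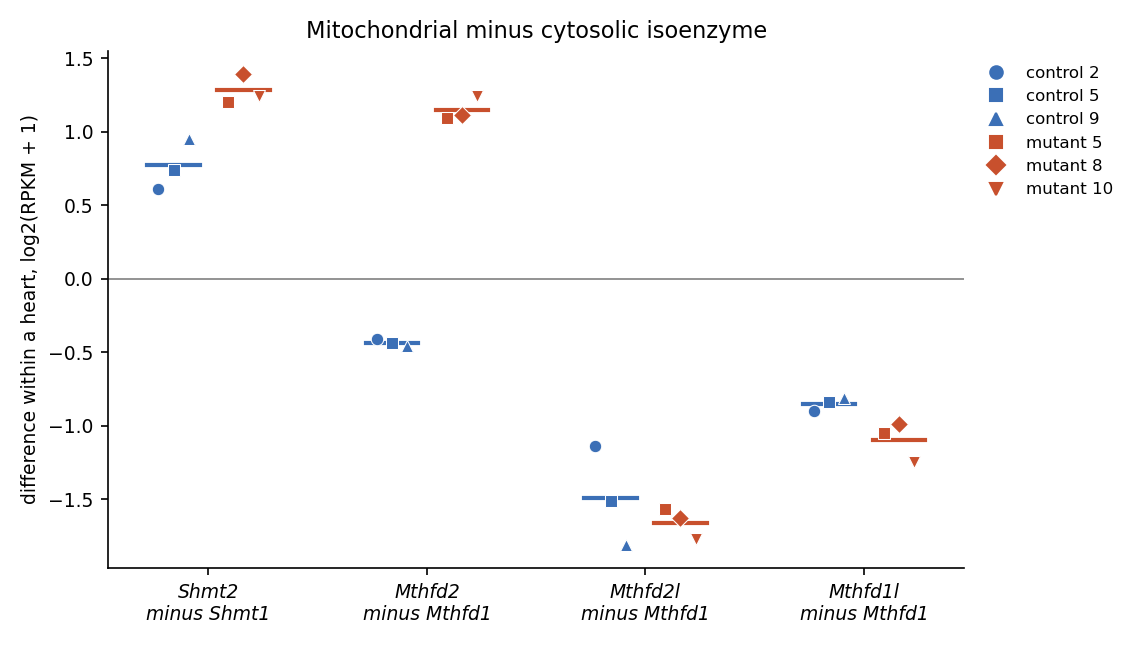
Difference between a mitochondrial and a cytosolic isoenzyme within each heart on log2(RPKM + 1), for 4 pairs in 3 control (blue) and 3 mutant (orange) hearts, with bars at the means. Mthfd2 minus Mthfd1 changes sign, from a mean of -0.44 to 1.15, Shmt2 minus Shmt1 is higher in every mutant heart, and Mthfd1l minus Mthfd1 is lower in every mutant heart.

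The order of the levels differed between the genotypes. In control hearts Phgdh (32.2 RPKM) was followed by Shmt2 (18.3), Psat1 (16), Mthfd1 (15.0), Mthfd2 (10.8), Shmt1 (10.3), Mthfd1l (7.85), Mthfd2l (4.77), Psph (4.63) and Aldh1l2 (1.41). The ranges over hearts overlapped between Shmt2 and Psat1, Psat1 and Mthfd1, and Mthfd2l and Psph, and were separate for the other neighbours. In mutant hearts the order was Phgdh (70.7), Mthfd2 (38.3), Shmt2 (28.3), Psat1 (22.5), Mthfd1 (16.6), Shmt1 (11.1), Mthfd1l (7.26), Psph (6.72), Aldh1l2 (5.93) and Mthfd2l (4.59). There Mthfd1l overlapped with Psph and Psph with Aldh1l2. Mthfd2 went from the fifth place to the second, and Aldh1l2 passed Mthfd2l.

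Among the mitochondrial enzymes Mthfd2 made up a larger part of the transcripts in mutant hearts. It made up 25.8%, 25.0% and 24.4% of the summed RPKM of the 5 mitochondrial enzymes in control hearts 2, 5 and 9, and 44.0%, 43.9% and 48.0% in mutant hearts 5, 8 and 10. The ratio of Mthfd2 to its isoenzyme Mthfd2l went from 1.76, 2.35 and 2.95 (controls 2, 5 and 9) to 7.47, 7.91 and 9.69 (mutants 5, 8 and 10). Against Shmt2, the step before it, the mean ratio of Mthfd2 was 0.60 in control and 1.35 in mutant hearts, and against Mthfd1l, the step after it, 1.38 and 5.31. The summed RPKM of the 5 mitochondrial enzymes was 41.0 to 45.8 in control and 78.6 to 89.9 in mutant hearts, and that of both cytosolic enzymes 24.5 to 26.2 and 26.3 to 29.5. These values describe the same hearts as above and were not tested separately.

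Promoter sequence is shown for Mthfd2 with Mthfd1 and Shmt2 with Shmt1, the pairs with a higher mitochondrial share in every mutant heart, and for Phgdh and Psph, the first and last enzymes of serine synthesis. RefSeq (GRCm38.p6) gave windows for 9 of the 10 genes, all but Aldh1l2, with 2 starts for Psat1. Each ran from 250 bases before to 50 bases after the start. These RefSeq starts can differ from the ends of the gene spans given above, which are from GENCODE. The windows of Psat1 and the bases printed below for Mthfd2, Shmt1 and Psph lie inside those spans. Some of the bases printed for Phgdh do too. Printed are 100 bases that end at the base before the start, except for Psph, where they run from 180 to 81 bases before it; each reads along the gene's strand, and capitals mark the letters ACGTG.
Mthfd2 (chr6:83317605-83317704, minus strand): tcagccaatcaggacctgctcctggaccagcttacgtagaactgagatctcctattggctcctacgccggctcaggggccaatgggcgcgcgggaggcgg
Mthfd1 (chr12:76255132-76255231, plus strand): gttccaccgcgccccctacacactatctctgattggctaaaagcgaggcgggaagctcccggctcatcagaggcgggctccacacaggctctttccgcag
Shmt2 (chr10:127522445-127522544, minus strand): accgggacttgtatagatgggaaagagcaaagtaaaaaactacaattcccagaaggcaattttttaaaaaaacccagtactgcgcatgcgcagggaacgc
Shmt1 (chr11:60811266-60811365, minus strand): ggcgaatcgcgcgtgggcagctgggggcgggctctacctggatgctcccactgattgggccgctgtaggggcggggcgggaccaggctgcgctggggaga
Phgdh (chr3:98339970-98340069, minus strand): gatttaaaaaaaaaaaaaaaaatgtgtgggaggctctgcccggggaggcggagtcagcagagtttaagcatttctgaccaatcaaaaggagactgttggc
Psph (chr5:129787334-129787433, minus strand): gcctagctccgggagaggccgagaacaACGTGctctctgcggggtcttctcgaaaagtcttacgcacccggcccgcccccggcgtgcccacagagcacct

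The windows were searched on both strands for TGATGNAA, the core of the response element bound by ATF4 with C/EBP factors, for CACGTG, the E-box, and for ACGTG, the core of the hypoxia response element, which CACGTG contains. TGATGNAA and CACGTG occurred in none of the 10 windows of the 9 genes, against 3.97% and 7.15% of 32851 promoter windows. At shares this low, 10 windows without a match are common, so the absence does not set these genes apart. Only exact matches inside these windows were sought, so elements elsewhere in a gene would be missed. ACGTG occurred in the windows of Psph (153 bases before the start), Mthfd1l (2 matches) and 1 of the starts of Psat1, against 19.6% of all windows. None of the 3 motifs occurred in the windows of the called enzymes Mthfd2 and Phgdh, or in those of Mthfd2l, Shmt1, Shmt2 and Mthfd1. The called enzyme Aldh1l2 had no window. The GC content of the windows was 55.7% for Mthfd2 and 59.0% for Mthfd1, and 42.7% for Shmt2 and 60.7% for Shmt1, with a median of 52.7% over all windows.

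Other genes of folate and serine metabolism, apart from the 10 enzymes, passed the threshold in few cases. Of 5 tested genes of folate uptake and storage none passed, with the mitochondrial folate carrier Slc25a32 at a log2 change of -0.07 and Ggh, which trims stored folate, at -0.25. Against shares of 0.398% and 0.42% of all tested genes, 1 of 9 other folate enzymes fell and none rose. This was Ftcd, which takes formimino groups from histidine breakdown into the folate pool, with 2.58, 2.82 and 2.84 RPKM in controls 2, 5 and 9 and 1.52, 1.66 and 1.33 RPKM in mutants 5, 8 and 10 (log2 change -0.58, limma adjusted p = 0.033). It passed in 8 of the 15 alternatives that tested it, and of the settings that leave out 1 heart it kept its call only without mutant 8 (adjusted p = 0.045, against 0.051 to 0.18). Tyms, which makes thymidylate, had a log2 change of -0.21 and did not pass (limma adjusted p = 0.46), nor did Qdpr (0.24), which recycles biopterin. None of 3 tested glycine cleavage genes (Gcsh 0.18, Amt 0.04), none of 5 methionine cycle genes (Mat2a -0.29, Ahcy 0.05) and none of 6 further serine-using genes (Ptdss2 0.14, Sdsl -0.13) passed.

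Among serine and glycine transporters 1 of 8 tested rose and none fell, against 0.42% and 0.398% of all tested genes. Slc6a9, the glycine transporter GlyT1, had 1.28, 1.45 and 1.46 RPKM in controls 2, 5 and 9 and 2.56, 3.22 and 3.75 RPKM in mutants 5, 8 and 10. The groups were well apart, with a log2 change of 0.79 ± 0.12 (SE, limma adjusted p = 0.021). It passed in 8 of 15 alternatives, and of the settings without 1 heart it kept its call only without mutant 5 (0.010, against 0.056 to 0.11). The neutral amino acid transporter Slc1a4 had means of 4.27 (control) and 5.46 (mutant) RPKM and did not pass (adjusted p = 0.33).

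Of 7 transcription factors described as regulators of these enzymes 4 rose and none fell, against 0.42% and 0.398% of all tested genes. This list was chosen with earlier results of these data known and was not tested as a set. Atf4 had 29.5, 33.5 and 29.7 RPKM in controls 2, 5 and 9 and 56.5, 62.3 and 57.1 RPKM in mutants 5, 8 and 10 (log2 change 0.90, limma adjusted p = 0.0028). The related stress-response factors Atf5 (1.45, adjusted p = 0.0034), Ddit3 (1.82, adjusted p = 9.7e-05) and Cebpb (0.82, adjusted p = 0.021) rose too. Cebpb lost its call without control 2 (0.087), control 5 (0.099), mutant 8 (0.056) or mutant 10 (0.12). The other 3 did not pass.

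The genes nearest in pattern to Mthfd2 and Phgdh were sought among 9205 tested genes with a mean log2(RPKM + 1) of at least 2, passing over the 10 enzymes themselves and predicted genes, by the root mean square difference over the 6 hearts of log2 values taken against the control mean. Nearest to Mthfd2 outside the 10 enzymes was Ddit3 (difference 0.159 log2), a transcription factor of the stress response. Next came Atf5 (0.253), the asparagine synthetase Asns (0.289), the branched-chain aminotransferase Bcat1 (0.293) and the metallothionein Mt2 (0.411). Nearest to Phgdh, again outside the 10, were the amino acid transporter Slc7a5 (0.120), the proline synthesis enzyme Pycr1 (0.15), Atf4 (0.154), Herpud1 (0.164), which acts in protein disposal at the endoplasmic reticulum, and Bcat1 (0.194). All of these passed the threshold upward, and Mt2 lost its call without control 5 (limma adjusted p = 0.068). The 6 hearts fall into 2 genotypes, and the measure takes in both the size of the change and the spread within a genotype. A gene near to Mthfd2 or Phgdh was thus chosen for being higher in the mutant hearts. Its upward call is no separate result.

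**Figure D4:**
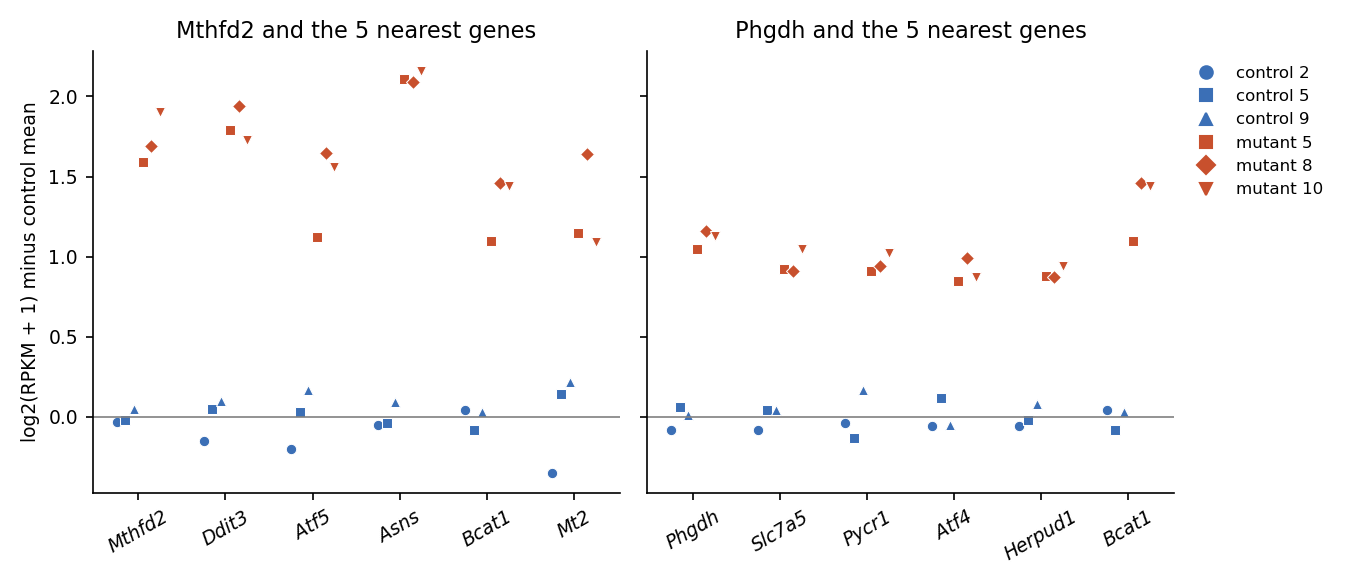
Values of log2(RPKM + 1) minus the control mean in each of 6 hearts, for Mthfd2 (left) and Phgdh (right) with the 5 nearest genes by root mean square difference, the other enzymes of the 10 and predicted genes left out. Of the genes shown, Ddit3 is nearest to Mthfd2 (0.159) and Slc7a5 to Phgdh (0.120). The mutant hearts (orange) lie above the control hearts (blue) for every gene shown, which largely follows from choosing near genes.

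Summed levels of some markers of other cells and of division differed between the genotypes beside these enzymes, with no single marker past the threshold. The summed RPKM of 11 listed macrophage markers was 39.9 to 47.1 in control and 14.4 to 33.9 in mutant hearts, with none of 10 tested past the threshold and all 10 changes negative. That of 10 epicardial and mesenchymal markers was 370 to 384 in control and 233 to 314 in mutant hearts. Of these only Col1a1 (control and mutant means of 118 and 84.4 RPKM) and Col1a2 (81.8 and 46.6) had separate groups. The epicardial markers overlapped between the groups. Their means were Wt1 6.22 and 5.6, Tbx18 10.2 and 8.44, Tcf21 19.3 and 16.4, Upk3b 33.3 and 34.5, Aldh1a2 13.5 and 13.2 RPKM. The 10 proliferation genes summed to 513 to 604 RPKM in control and 440 to 505 RPKM in mutant hearts. Again none was past the threshold and all 10 changes were negative. Of these genes only Cdk1 (control and mutant means of 59.6 and 50.8 RPKM) and Ccna2 (61.9 and 51.3) had separate groups. Over all tested genes 42.6% of the changes were positive. Endothelial markers (136 to 156 and 129 to 149 RPKM) and erythroid genes (13961 to 16570 and 11718 to 21062 RPKM) overlapped between the groups. The liver marker Alb had no row, the 3 listed liver markers summed to at most 5.69 RPKM and the 4 listed neural markers to 3.99 to 5.57 RPKM in control and 5.73 to 6.76 RPKM in mutant hearts. No value in the table is 0. The part of these cells in the enzyme changes was not tested.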

How the data were processed

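RNA from 6 whole hearts was analysed from a single deposited table. Its values are linear RPKM made by the authors from constitutive exons; the header names no unit, and the unit was taken from the values, which fell within 0.1 of whole reads for 82.3% to 84.3% of low values of single-exon genes. Per the submitters' processing notes, Trim Galore, TopHat2 and build mm10 were used, with no versions stated. What counted the reads, with which annotation and whether by strand, was not given in the sources. Every listed gene has a geometric mean of at least 0.5 RPKM in a genotype.

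The 13080 genes that reached 1 RPKM in 3 or more libraries were fitted with limma 3.58.1 in R 4.3.3 on log2(RPKM + 1) with a mean-variance trend, all 6 hearts, no covariates, two-sided, and Benjamini-Hochberg adjustment over all tested genes at 0.05. The fit was tested on simulated data. Isoenzyme pairs were compared with exact permutation tests (scipy 1.17.1). Positions are from GENCODE M21 (mm10), promoter windows from RefSeq (GRCm38.p6). Intervals are 95%. Named genes are the 10 members, the partner Aldh1l1, Hif1a, the 4 genes with the smallest p of each pathway list and the 5 nearest genes to Mthfd2 and to Phgdh, without members and predicted symbols; 1 gene of a pathway list is not reported here. Genes that share exon bases with a member, and the cell type markers given by name, are named outside this rule and were chosen after values were seen. The members, lists and alternatives were chosen with earlier results of these data known. The 16 alternatives cover scaling, filter, pseudocount, variance model and subsets of hearts.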

Additional observations from a re-analysis of the deposited data

How the results depend on the processing

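Phgdh, Mthfd2 and Aldh1l2 kept their direction and their call in all 16 alternatives. The number of members past the threshold was 3 to 4 in all of these but the minimum of 5 RPKM, which tested 9 members and gave 5 (Psat1 and Shmt2 in addition). Over all genes, leaving out 1 heart gave 40 to 198 calls, 22 to 85 higher and 14 to 113 lower. The 4 hearts with chromosome Y expression gave 53 calls (29 higher, 24 lower), median centring 34 lower and rescaling without haemoglobin genes 79 lower. The shift of Mthfd2 minus Mthfd1 was 1.66 with a pseudocount of 0.1 and 1.33 with 5.

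Signs changed only for genes not past the threshold. Mthfd2l had log2 changes of 0.005 after median centring, 0.12 without control 2 and 0.11 in the 4 middle hearts (control 2 and mutant 8 left out). After median centring Dld was 0.033. Leaving out 1 heart at a time gave -0.15 to 0.12 for Mthfd2l, -0.13 to 0.013 for Slc25a32, -0.032 to 0.17 for Amt, -0.099 to 0.13 for Dld, -0.11 to 0.016 for Sptlc1 and -0.088 to 0.025 for Srr. In the 4 middle hearts Slc25a32 was 0.038, Amt -0.10, Dld 0.26, Mat2b 0.045, Ahcy -0.03, Ahcyl1 0.005 and Srr 0.046. In the 4 hearts with chromosome Y expression Folr1 was 0.052, Slc25a32 0.022, Amt -0.052, Dld 0.036 and Srr 0.012. The cause of these changes was not tested.

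No paired analysis was possible because the genotypes share a single sample number, 5. With 3 hearts per genotype no exact test of a pair can pass 0.05. Among members, depth limits Mthfd2l most, with a counting error of 3.13%.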
